A study of Homo sapiens with 5 samples.

Results

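Annexins, S100 proteins and galectins are small families of proteins that bind membranes, calcium or glycans, and 10 of their genes were followed through the series by their symbols, out of 27189 genes listed in each library. The 10 genes were the annexins ANXA1, ANXA2 and ANXA5, the S100 genes S100A4, S100A6, S100A10, S100A11 and S100A13, and the galectins LGALS1 and LGALS3. RNA had been sequenced from HT1080 cells, a human fibrosarcoma line taken at passages 15 to 18, after 24 h in type I collagen at 2 mg/ml. The low-density group without cytokine (LD) and the groups given recombinant IL-6, recombinant IL-8, or IL-6 together with IL-8 at 5:2 (RM) held 10 cells per mm3. The high-density group without cytokine (HD) held 50 cells per mm3. Each group was 1 library of 1 cell line from a single experiment, so a difference between libraries had no replicate check and no p-value could be given.

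Annexins bind acidic phospholipids of membranes in a calcium-dependent way and are known for roles in membrane repair, trafficking and the cell cortex. S100 proteins are EF-hand calcium sensors that mostly act as dimers on partner proteins, and several of them pair with particular annexins, as S100A10 does with ANXA2 and S100A11 with ANXA1. Galectins are lectins that bind beta-galactosides on glycoproteins, inside and outside the cell. Fibroblast-like cells are known to carry much ANXA2, S100A6 and LGALS1.

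The HD library stood apart from the other libraries before any of these genes was considered. It held 449661 reads outside the ribosomal RNA entry RNA5-8S5, against 1100967 to 1645539 in the other 4, and RNA5-8S5 took 51.5% of its reads against 76.9% to 79.6%. Although it was the shallowest, reads fell on 20112 genes in it, against 13468 to 15079 in the others. The mesenchymal marker list (VIM, FN1, CD44, SPARC, CDH2, TIMP1, MMP14 and NT5E) summed to between 3961 and 6696 TPM (transcript abundance, corrected for length) in the low-density libraries and to 845 TPM in HD. NT5E was at 0 reads in all 4 low-density libraries. Epithelial markers (3 of 4 listed) summed to at most 1.29 TPM, the 4 endothelial markers to at most 1.52 TPM and the 3 erythroid markers to 0 TPM in the low-density libraries. In HD they summed to 44.1, 68.3 and 94.3 TPM, with reads on 2, 4 and 1 of their genes, KRT5, HBA1 and HBA2 staying at 0. The 4 leukocyte markers summed to 206 to 243 TPM at low density and 307 TPM in HD. CD68, a lysosomal glycoprotein gene that is not restricted to leukocytes, was the highest of them at low density, with 222 TPM in LD against 86.0 in HD, while PTPRC and CD3E were at 0 reads in both LD and RM. The other 3 moved the opposite way to CD68 in HD, PTPRC to 118 TPM (36 reads), LYZ from 1.57 TPM in LD to 90.6 (13 reads) and CD3E to 13.1 (3 reads). The part of these differences in the HD values given for the 10 genes was not tested.

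All 10 genes lie on autosomes (GENCODE 29, GRCh38, matched by symbol, a newer build than the GRCh37/hg19 named in the processing notes). The 5 S100 genes lie on the minus strand of chromosome 1, from S100A10 at chr1:151982915-151994390 to S100A13 at chr1:153618787-153631360. S100A6 (chr1:153534599-153536244) and S100A4 (chr1:153543613-153550136) are near neighbours there. ANXA1 is on chromosome 9, ANXA2 on 15, ANXA5 on 4, LGALS1 on 22 and LGALS3 on 14. Exons of S100A13 overlap those of S100A1 on the other strand and those of S100A6 overlap BX470102.1, and the preparation kept no strand, so reads of such pairs cannot be told apart. Sequence just upstream of the start differs among the members and is shown for 5 genes on which comparisons turn: the annexins and the neighbours S100A4 and S100A6. Each line gives bases 40 to 11 before the RefSeq transcript start (GRCh38.p14), 5′ to 3′ on the gene's strand, and capitals mark TATAA, the core of a TATA box.
ANXA1: ttaaaatccTATAAaatcagaagcccaagt
ANXA2: tgtggcgggTATAAaagccccacccaggcc
ANXA5: gggccggggtggggccgctggcgtttccgt
S100A4: tggctggggTATAAataggtcagacctctg
S100A6: caccgaccgcTATAAggccagtcggactgc

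The windows are chr9:73151825-73151854 (plus strand) for ANXA1 and, on the minus strand, chr15:60397997-60398026 for ANXA2, chr4:121696991-121697020 for ANXA5, chr1:153545817-153545846 for S100A4 and chr1:153536002-153536031 for S100A6. TATAA lay in this 30-base window in 4 of the 5 genes shown. Over the 9 members with a RefSeq promoter entry it did so in 5, the fifth being 1 of the 3 starts of S100A13. The letters occur in the same window of 4.06% of 35116 promoters. ANXA5 has a GC-rich window without it, at 80% G or C, while the ANXA1 window is at 30%. In the 250 bases before the start, GGGCGG (either strand) was found in 7 of the 9 members, against 42.6% of all promoters. TGANTCA (either strand) was found only in ANXA2 among the 9, against 6.57% of all promoters, and TTCNNNGAA (either strand) in none of them, against 6.57%. These matches describe the letters alone.

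The 10 genes covered a wide range of levels, and LGALS1 and S100A6 were among the most abundant transcripts of the cells. TPM values were recomputed without RNA5-8S5, so that the remaining genes sum to 1000000 in each library. LGALS1 stood at ranks 17 to 32 of all genes and S100A6 at ranks 33 to 38 in the low-density libraries. In LD the order by TPM was LGALS1, S100A6, ANXA2, S100A11, S100A10, ANXA5, S100A13, ANXA1, LGALS3 and S100A4, and only the 95% counting intervals of LGALS3 and S100A4 overlapped between neighbours. Such an interval is an exact (Clopper-Pearson) interval on the reads behind a value. It covers counting error only, since reads amplified without molecular identifiers are not independent molecules. As a share of reads outside RNA5-8S5, the 10 genes together made up 0.470% in LD, 0.498% with IL-6, 0.451% with IL-8, 0.439% in RM and 0.110% in HD.

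**Figure D1:**
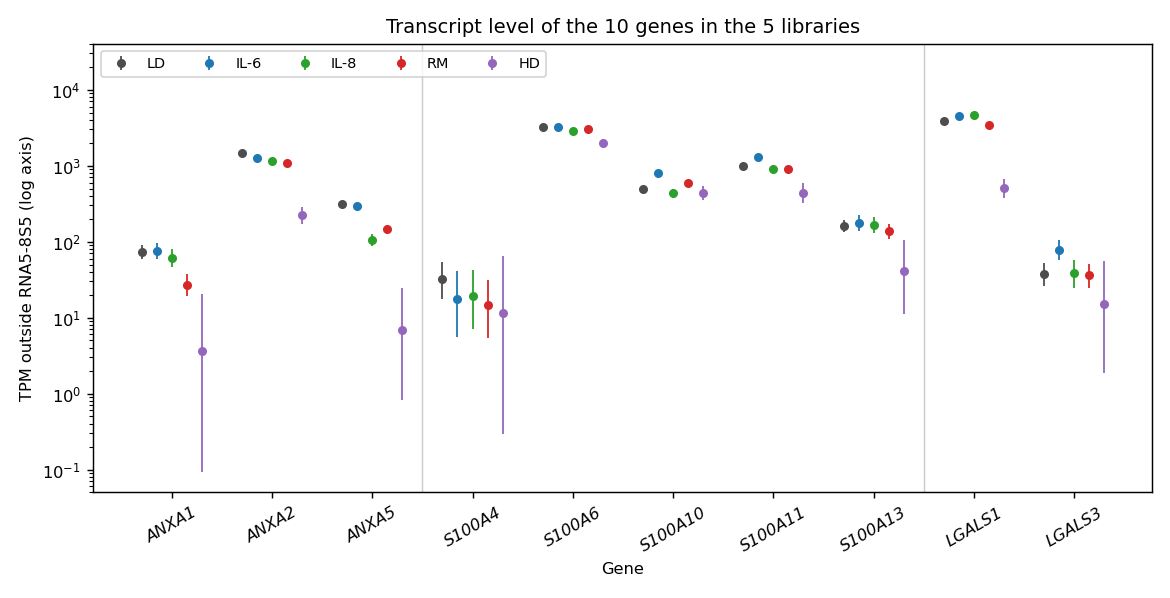
Level of each gene in TPM outside RNA5-8S5 (log axis) in the 5 libraries, 1 point per library, with bars for the exact 95% counting interval. HD lies below the 4 low-density libraries for every gene but S100A10, and its bars are widest for ANXA1, ANXA5, S100A4 and LGALS3, which had 1 or 2 reads there.

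Among the annexins, ANXA2 was the most abundant and the steadiest at low density. ANXA2, a cortical membrane binder and cell surface plasminogen receptor, stood at 1466 TPM in LD, 1250 with IL-6, 1163 with IL-8 and 1085 in RM, against 223 in HD. Its highest low-density value was 1.35 times its lowest. The 4 low-density libraries lay close together and HD lay well below all of them.

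ANXA5, the annexin whose protein is used as a probe for phosphatidylserine on dying cells, separated the low-density libraries more. It stood at 314 TPM in LD, 291 with IL-6, 107 with IL-8, 146 in RM and 6.82 in HD, from 476, 299, 119, 215 and 2 reads. LD and IL-6 were therefore the high libraries, and IL-8 and RM, which share IL-8, were the low ones. ANXA1, a glucocorticoid-regulated inhibitor of phospholipase A2 activity, stood at 73.7 TPM in LD, 75.5 with IL-6, 61.7 with IL-8, 27.1 in RM and 3.68 in HD. Only RM was low among the low-density libraries for ANXA1, with 36 reads against 60 to 99.

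S100A6, a dimeric binder of the ubiquitin-pathway protein CACYBP, stood at 3248 TPM in LD, 3205 with IL-6, 2896 with IL-8 and 3015 in RM, against 1993 in HD. Its highest low-density value was 1.12 times its lowest, the narrowest spread among the 10 genes. S100A11, the partner of ANXA1, stood at 988 TPM in LD, 1295 with IL-6, 905 with IL-8, 908 in RM and 438 in HD.

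S100A10, the light chain of the ANXA2 heterotetramer and an S100 protein that does not bind calcium, stood at 487 TPM in LD, 803 with IL-6, 439 with IL-8, 597 in RM and 441 in HD. Both libraries given IL-6 were above the others, and HD lay within the range of the low-density libraries, at 101% of the lowest of them. S100A13, which takes part in the non-classical export of FGF1, stood at 162 TPM in LD, 178 with IL-6, 165 with IL-8, 136 in RM and 41.0 in HD. S100A4, a binder of non-muscle myosin IIA known in motile and metastatic cells, rested on 14 reads in LD, 5 with IL-6, 6 with IL-8, 6 in RM and 1 in HD, or 32.6, 17.4, 19.3, 14.5 and 11.5 TPM. No order among the libraries can be read from S100A4 at this depth, since the intervals of all 5 libraries overlapped.

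The galectins were far apart in level. LGALS1, the dimeric galectin of mesenchymal cells, stood at 3829 TPM in LD, 4529 with IL-6, 4603 with IL-8, 3478 in RM and 511 in HD. LGALS3, the galectin with collagen-like repeats that forms lattices on glycoproteins, stood at 37.6 TPM in LD, 78.5 with IL-6, 38.3 with IL-8, 36.1 in RM and 15.3 in HD, from 35, 49, 23, 33 and 2 reads. The IL-6 library alone was high for LGALS3, and LGALS1 was highest in the libraries given a single cytokine.

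The comparison of IL-6 with LD asks what 1 of the cytokines alone changes at low density. A gene was counted as changed when log2(TPM + 1) differed by at least 1, a scale that understates the change of low genes, and all 10 genes were among the 21313 that reached 1 TPM in any library. LGALS3 was the 1 member called, at 1.04 log2 units higher, where 20.6% of all genes were called in either direction and 12.2% higher. Its ratio of reads, each as a share of reads outside RNA5-8S5, was 2.09 (95% interval 1.33 to 3.33). Over 9 other scalings and pseudocounts the LGALS3 difference lay between 0.84 and 1.26 and stayed past 1 in 4 of them. S100A10 was 0.72 log2 units higher, short of the threshold, with a ratio of reads of 1.65 (1.46 to 1.87). S100A11 and LGALS1 were higher by 0.39 and 0.24 log2 units and ANXA2 differed by -0.23, each with an interval on its reads that left out 1. The median difference of the 10 genes was 0.08, beside 0.00 over all 21313 genes and 0.02 over the 2630 genes with a mean of at least 50 TPM.

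In IL-8 against LD, ANXA5 was the 1 member called, at -1.55 log2 units, where 27.3% of all genes were called in either direction and 18% lower. The ratio of its reads was 0.367 (0.298 to 0.450). Under the 9 other scalings and pseudocounts the difference of ANXA5 lay between -1.59 and -1.09, past the threshold each time. LGALS1 was 0.27 log2 units higher, with a ratio of reads of 1.28 (1.19 to 1.37). ANXA2 differed by -0.33, with a ratio of 0.841 (0.785 to 0.902), but it reached 0.10 with median-ratio normalization. The other 7 genes had intervals on their reads that held 1. The median of the 10 was -0.16, beside 0.00 over all 21313 genes and -0.10 over the 2630 genes with a mean of at least 50 TPM.

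In RM against LD, 3 members were called lower, where 29.6% of all genes were called in either direction and 22.5% lower. ANXA1 was at -1.41 log2 units with a ratio of reads of 0.417 (0.277 to 0.617). ANXA5 was at -1.10 with a ratio of 0.518 (0.439 to 0.610). S100A4 was at -1.11, but its 6 against 14 reads gave a ratio of 0.492 with an interval of 0.155 to 1.36, which holds 1. S100A10 was 0.29 log2 units higher, with a ratio of 1.35 (1.19 to 1.53). ANXA2 had a ratio of 0.811 (0.760 to 0.866), while S100A6, S100A11, S100A13, LGALS1 and LGALS3 had ratios from 0.840 to 1.08 with intervals that held 1. The median of the 10 was -0.19, beside 0.00 over all 21313 genes and -0.24 over the 2630 genes with a mean of at least 50 TPM.

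The RM calls depended on the scaling between libraries. The factors of median-ratio and TMM scaling moved RM against LD up by 0.60 and 0.43 log2 units over CPM (reads scaled to 1000000 outside RNA5-8S5). Values of genes with few reads moved by less, because of the pseudocount. All genes called split into 1516 higher and 4790 lower in TPM and 1835 and 4906 in CPM, but 3092 and 3252 with median-ratio scaling and 2698 and 3702 with TMM. ANXA1 kept its sign in all 9 alternatives but came to -0.64 with median-ratio scaling, and stayed past the threshold in 6. ANXA5 likewise kept its sign, came to -0.34, and stayed past the threshold in 4. S100A10 reached 1.03 with median-ratio scaling. ANXA2 and S100A13 were negative in TPM and in CPM and positive with median-ratio scaling, while S100A6, S100A11, LGALS1 and LGALS3 were already between 0.00 and 0.11 in CPM. Ratios between members of 1 library do not depend on this choice. ANXA1 had 4.45 reads per 100 reads of ANXA2 in LD (3.60 to 5.44), 5.49 with IL-6, 4.71 with IL-8 and 2.29 in RM (1.60 to 3.18). ANXA5 had 21.4 reads per 100 of ANXA2 in LD (19.3 to 23.6), 23.5 with IL-6, 9.33 with IL-8 (7.67 to 11.3) and 13.7 in RM (11.8 to 15.8). So ANXA1 in RM, and ANXA5 both with IL-8 alone and in RM, were also low relative to ANXA2, with intervals apart from those of LD. These pairs were chosen after the values had been seen.

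**Figure D2:**
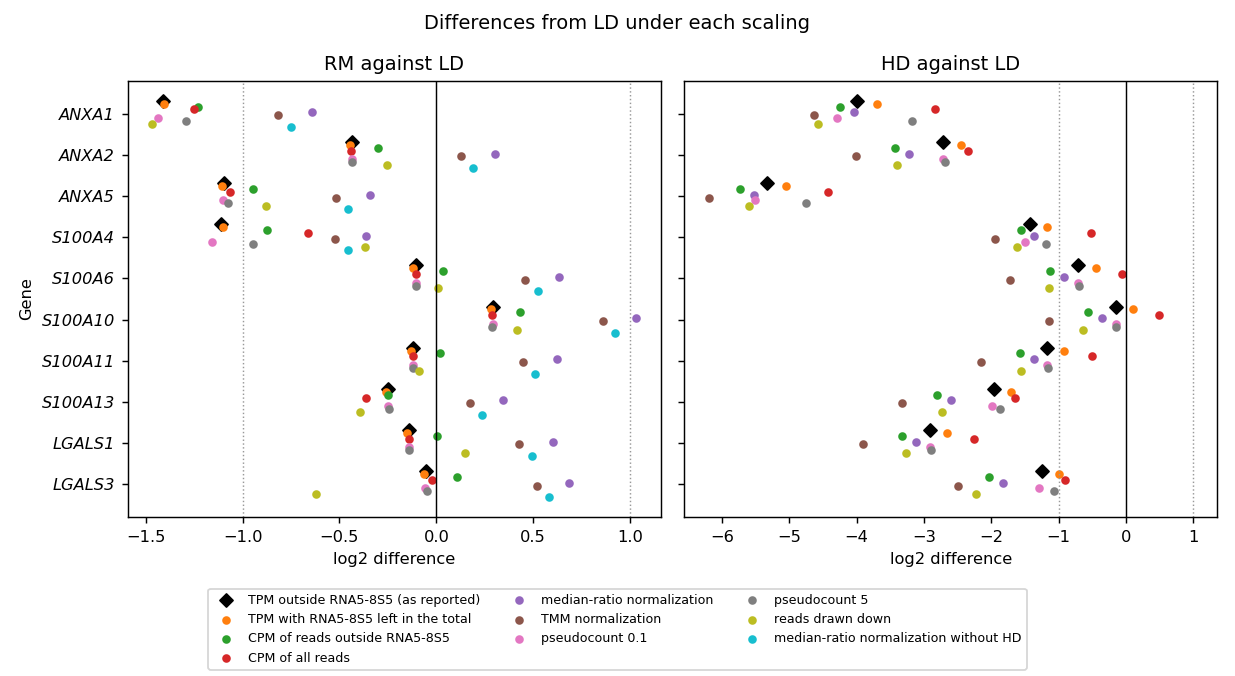
Difference of each gene from LD in RM (left) and HD (right) on the log2 scale, 1 point per scaling or pseudocount, with the reported value as a black diamond and dotted lines at 1 log2 unit. In RM the median-ratio and TMM points sit to the right of the reported values for all 10 genes, and in HD the points for ANXA1, ANXA2, ANXA5, S100A13 and LGALS1 stay below -1 under every scaling.

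RM against each single cytokine asks what the pair adds. In RM against IL-6, ANXA1 (-1.44) and LGALS3 (-1.10) were called lower, where 32.9% of all genes were called in either direction and 26% lower. Their ratios of reads were 0.395 (0.256 to 0.598) and 0.517 (0.322 to 0.820). The ANXA5 value of -0.99 fell just short of the threshold, with a ratio of 0.552 (0.461 to 0.660). In RM against IL-8, ANXA1 was the 1 member called, at -1.16 with a ratio of 0.469 (0.301 to 0.720), where 27.8% of all genes were called in either direction and 16.9% lower. ANXA5 was 0.45 log2 units higher in RM than with IL-8 and kept that sign in all 9 alternatives. These comparisons share the RM library with each other and with RM against LD, so they are not separate observations of ANXA1.

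**Figure D3:**
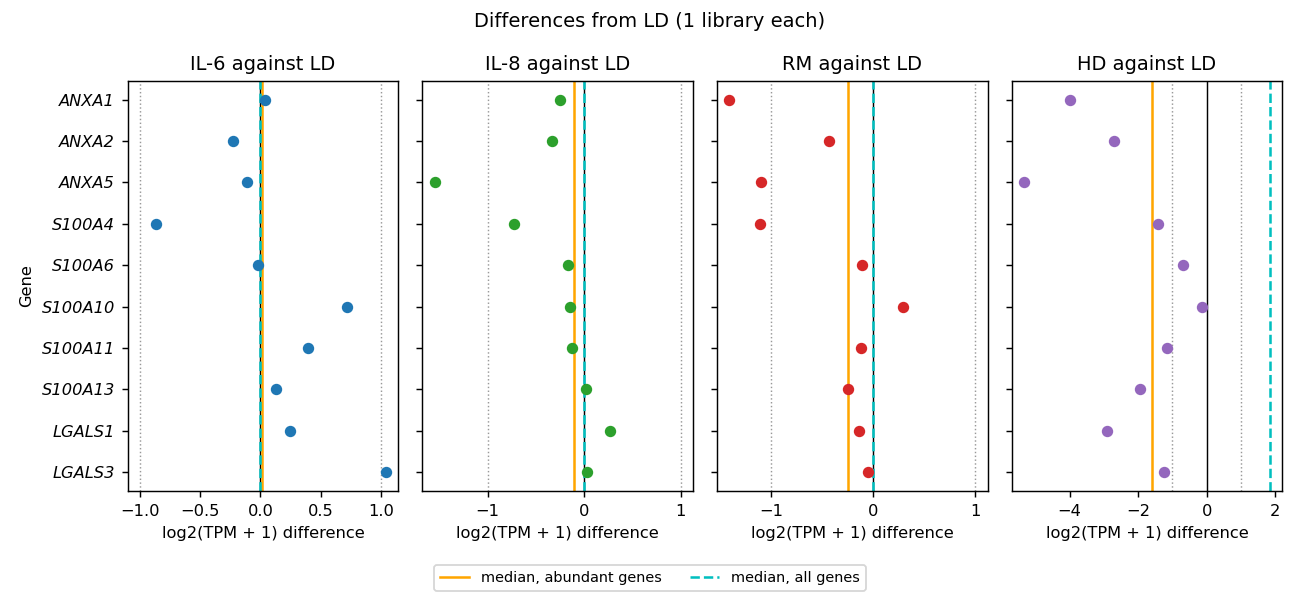
Difference of each gene from LD in log2(TPM + 1) units, 1 panel per library, with dotted lines at 1 log2 unit and vertical lines for the median of all 21313 genes (dashed) and of the 2630 abundant genes (solid). The horizontal ranges differ between panels. In HD the 10 genes scatter around the median of the abundant genes, -1.59, and none is near that of all genes, 1.85.

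In HD against LD, 8 members were called lower, where 80.4% of all genes were called in either direction and 20.3% lower. The 80.4% includes genes without reads in LD that reached 1 TPM in HD, which the filter and threshold alone called higher. Among the 2630 abundant genes 61.6% were lower and their median was -1.59, close to the -1.69 of the 10 members. The annexins and LGALS1 lay furthest down. ANXA2 was at -2.71 log2 units, from 56 against 2225 reads, with a ratio of reads of 0.0921 (0.0693 to 0.120). LGALS1 was at -2.90, with a ratio of 0.0987 (0.0727 to 0.131). ANXA5 had 2 reads in HD and a ratio of 0.0154 (0.00186 to 0.0558), and ANXA1 had 1 read and a ratio of 0.0370 (0.000927 to 0.211).

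S100A13 and S100A11 were lower by smaller amounts, with ratios of reads of 0.131 (0.0350 to 0.344) and 0.333 (0.240 to 0.450). LGALS3, with 2 reads in HD, had a ratio of 0.209 (0.0244 to 0.814), and S100A4, with 1 read, had 0.261 (0.00618 to 1.72), which holds 1. The floor of 3 reads equals 6.67 CPM in HD, and ANXA1, ANXA5, S100A4 and LGALS3 were under that limit. A smaller number of cells carrying a transcript and less of it per cell cannot be told apart in these pooled lysates.

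S100A6 and S100A10 were the 2 members not called in HD. S100A6 was at -0.70 log2 units, with a ratio of reads of 0.455 (0.397 to 0.520). S100A10 was at -0.14, with a ratio of 0.676 (0.533 to 0.849), but it turned to 0.11 when RNA5-8S5 was left in the TPM total and to 0.50 in CPM of all reads, and reached -1.14 with TMM. S100A6 came first by TPM in HD, ahead of LGALS1 (1993 against 511 TPM), the reverse of their order in each low-density library. LGALS1 had 92.7 reads per 100 of S100A6 in LD (86.9 to 98.8), 111 with IL-6, 125 with IL-8, 90.7 in RM and 20.1 in HD (14.5 to 27.4). ANXA2 had 113 reads per 100 of S100A6 in LD, 98.2 with IL-6, 101 with IL-8, 90.0 in RM and 23.0 in HD (16.8 to 30.8). The S100A6 share thus held up better in HD than those of LGALS1 and ANXA2, a comparison that needs no scaling between libraries. These pairs with S100A6 were also chosen after the values had been seen, so they restate the differences above.

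ANXA2 and S100A10 encode the 2 subunits of a complex. The ratio of their TPM values was lower with IL-6, in RM and in HD than in LD. It was 3.01 in LD (2.72 to 3.33), 1.56 with IL-6 (1.41 to 1.73), 2.65 with IL-8 (2.34 to 3.01), 1.82 for RM (1.65 to 2.00) and 0.506 for HD (0.356 to 0.715). The intervals of IL-6, RM and HD lay below those of LD and IL-8, and in HD the order of the subunits was turned round. HD also differed from LD in depth and in the marker genes above, so density cannot be told apart from the library. Relative to S100A6 in place of ANXA2, S100A10 had 24.6 reads per 100 in LD (22.2 to 27.2), 41.0 with IL-6 (37.0 to 45.4), 24.8 with IL-8 (21.8 to 28.1), 32.4 for RM (29.5 to 35.7) and 36.5 for HD (28.3 to 46.7). S100A10 was therefore higher in both libraries given IL-6 than in LD and IL-8, both relative to ANXA2 and relative to S100A6. Reads of ANXA2 could in part be assigned to its processed copies. Of these, ANXA2P2 had 5, 0, 2, 2 and 11 reads in LD, after IL-6, after IL-8, in RM and in HD. ANXA2P3 had 6 in HD. So up to 17 reads of ANXA2 may have gone to these 2 copies in HD, beside its 56. Reads of the copies that were assigned to ANXA2 cannot be counted here.

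The LGALS1 to LGALS3 ratio of TPM was 102 in LD (73.0 to 147), 57.7 with IL-6 (43.4 to 78.3), 120 with IL-8 (79.8 to 190), 96.2 for RM (68.2 to 140) and 33.5 for HD (8.79 to 284). Only the intervals of IL-6 and IL-8 were apart from each other. The S100A6 to S100A4 ratio ran from 99.8 in LD to 208 in RM, and the intervals of all 5 libraries overlapped.

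**Figure D4:**
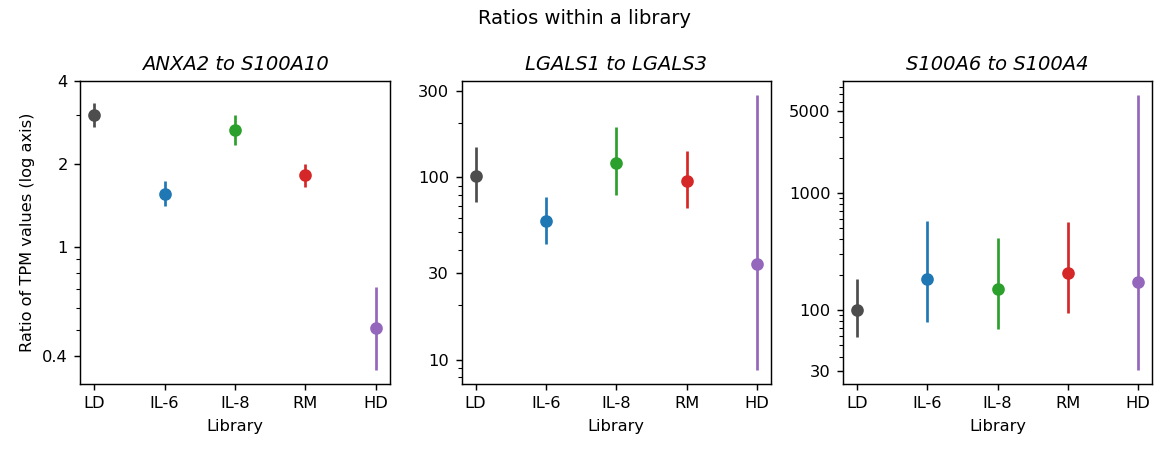
Ratio of TPM values of 2 genes within each library (log axes), with bars for the exact 95% interval from the reads. The ANXA2 to S100A10 ratio is 3.01 in LD and 2.65 in IL-8 but 1.56 with IL-6, 1.82 in RM and 0.506 in HD, while the S100A6 to S100A4 intervals overlap throughout.

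The list of other members of the 3 families also held LGALS3BP and S100PBP, which encode binding partners and not members. Of its 39 genes present in the data, 30 passed 1 TPM in at least 1 library, both of these among them. In IL-6 against LD 3 of the 30 were higher and 4 lower, in IL-8 3 and 4, in RM 2 and 5, and in HD 18 and 8, with a median of 2.39 in HD beside 1.85 over all genes, of which 60.1% were higher there. A gene without reads in LD that reached 1 TPM in HD was called higher by the filter and threshold alone. S100A8, S100A9 and S100P were such genes, each with 1 read in HD against 0 in LD. LGALS12, with 19 reads in HD, and ANXA10 and S100A14, with 11 each, were such genes too. Their intervals on the ratio of reads left out 1. S100PBP, with 32 reads in HD against 14 in LD, and LGALS4, with 10 against 2, were not such genes. The values over all genes carry the same effect, so these HD counts and medians cannot show a rise of the families. By mean TPM the highest 4 were S100A16, S100A2, LGALS3BP and S100A3. S100A16 stood at 1807 TPM in LD, 1992 with IL-6, 2458 with IL-8, 1726 in RM and 252 in HD, and S100A2 at 1279, 1198, 1492, 1615 and 295 TPM. LGALS3BP, a secreted glycoprotein that galectins bind, ran from 97.7 to 132 TPM at low density and stood at 20.8 in HD. Like 9 of the 10 members, these 3 had their lowest TPM value in HD.

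S100A3, a cysteine-rich S100 protein best known from the hair cuticle, had a larger range than the other S100 genes named here. It had 3 reads in LD, 13 with IL-6, 34 with IL-8, 209 in RM and 4 in HD, or 4.55, 27.9, 71.1, 328 and 22.8 TPM. Every cytokine library was above LD, and RM was the highest. The ratios of reads to LD were 6.48 with IL-6 (1.78 to 35.4), 16.6 with IL-8 (5.23 to 84.7) and 79.9 in RM (27.0 to 391), and RM to IL-8 was 4.80 (3.33 to 7.12). Over all 10 settings the RM against LD difference lay between 4.47 and 6.22 log2 units. S100A3 (chr1:153547329-153549372) lies within the annotated span of S100A4 on the same strand, with no shared exon, and S100A4 had 6 reads in RM. The gene entered the text as the fourth of its list by mean TPM over the 5 libraries. That mean, 91.0 TPM, includes the 328 TPM of RM, so its choice was not independent of its high RM value.

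**Figure D5:**
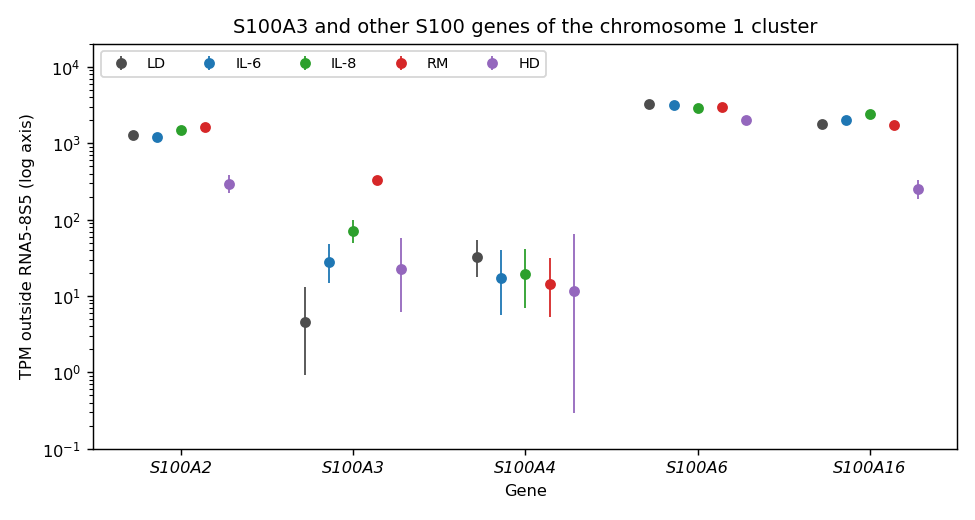
Level of 5 S100 genes of chromosome 1 in TPM outside RNA5-8S5 (log axis), 1 point per library, with bars for the exact 95% counting interval. S100A3 runs from 4.55 TPM in LD to 328 TPM in RM, while S100A2, S100A6 and S100A16 lie within narrow ranges across the 4 low-density libraries.

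Partner genes of the members were counted by role, against shares over all genes of 20.6% called with IL-6, 27.3% with IL-8, 29.6% in RM and 80.4% in HD. Of 10 membrane repair genes, 1 was higher with IL-6, 2 with IL-8 and 1 in RM, and 2 were lower in RM. DYSF (dysferlin, a membrane fusion protein that binds annexins) was higher in all 3, at 1.37, 1.13 and 1.73 log2 units, and CHMP4B, an ESCRT-III subunit, was at 1.37 with IL-8 and -1.89 in RM, from 129 reads in LD, 241 with IL-8 and 33 in RM. The calpain genes CAPNS1, CAPN2 and CAPN1 stayed within 1 log2 unit of LD in all 3 cytokine libraries. In HD, 7 of the 10 were lower and 1 higher.

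Of 4 measured genes of plasmin generation, none passed the threshold with IL-6, 1 was lower with IL-8 and 1 higher in RM. That gene was PLAT, tissue plasminogen activator, with 12, 4, 1, 46 and 1 reads in LD, after IL-6, after IL-8, in RM and in HD. PLAU and PLAUR, urokinase and its receptor, ranged from 103 to 142 and from 74.1 to 130 TPM at low density. In HD 2 of the 4 were lower and 1 higher. Of 8 S100 targets and receptors, 2 were lower with IL-6, 1 with IL-8, 3 in RM and 3 in HD, and none was higher. The 2 with IL-6 rested on 2 and 1 reads, against 11 and 4 in LD, with intervals that held 1. The second of them was also called in RM, from 1 read. MYH9, the myosin bound by S100A4, ran from 567 to 790 TPM at low density and stood at 104 in HD.

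Of 8 galectin ligands and glycan-branching genes, none passed the threshold in IL-6 or IL-8, 2 were lower in RM, and in HD 4 were lower and 1 higher. BSG, a heavily glycosylated immunoglobulin-family protein, stood at 511 TPM in LD, 391 with IL-6, 303 with IL-8 and 505 in RM, against 45.2 in HD. The ANXA1 receptors and phospholipase A2 were barely detected, with sums of 0 to 22 reads over 4 genes. FPR1, a formyl peptide receptor that ANXA1 engages, had 21 reads in RM against 0 in LD and IL-8, 2 with IL-6 and 1 in HD. In this list 1 gene was higher and 2 lower with IL-6, and none and 2 with IL-8. The counts were 1 and 2 in RM, and 3 and 1 in HD. Apart from FPR1 in RM and FPR3 in HD, every one of these calls had an interval on its reads that held 1.

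Of 5 measured EF-hand calcium sensors outside the S100 family, 1 was higher with IL-6 and 1 lower with IL-8. In RM 1 was higher and 2 lower, and in HD 3 were lower. The gene called higher was CAPNS2 each time, with 1 read against 0 in LD and an interval that held 1. The calmodulin gene CALM2 was at -1.24 log2 units with IL-8 and -1.29 in RM, with ratios of reads of 0.447 (0.369 to 0.540) and 0.451 (0.378 to 0.535). CALM3, which encodes the same protein, was at 0.61 and -0.05 in those libraries. SRI, encoding the penta-EF-hand protein sorcin, was at -1.42 in RM, with a ratio of 0.418 (0.276 to 0.622).

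The mean profile of the 10 members over the 5 libraries was most like that of GIPC1, followed by DNAJC7, CALD1, ACTN4 and GLYR1, out of 2593 candidate genes with a mean of at least 50 TPM. Likeness was the root mean square distance between centred log2(TPM + 1) values, 0.05 for GIPC1 and 0.08 for GLYR1, over 5 libraries. ACTN4, an actin cross-linker, stood at 1487 TPM in LD, 1733 with IL-6, 1214 with IL-8, 1214 in RM and 379 in HD. Among the members themselves S100A13 was nearest to the mean profile (0.13) and ANXA5 farthest from it (1.14), followed by ANXA1 (0.73) and S100A10 (0.71). The mean profile thus described ANXA5, ANXA1 and S100A10 least well.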

How the data were processed

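RNA from 5 libraries, 1 per condition, had been primed on oligo-dT, amplified as a whole pool with phi29 polymerase, tagmented and read as 50 bp single ends. The processing notes name GRCh37/hg19, CASAVA 1.4, Bowtie2 2.3.1 and RSEM 1.2.25. The authors deposited whole-number read counts per gene, not normalized, and TPM values, corrected for transcript length and library total. Strong amplification and RNA5-8S5 (51.5% to 79.6% of reads) can shift both.

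RNA5-8S5 was left out, and TPM was rescaled to 1000000 per library. Differences are log2(TPM + 1), called at 1 unit, over genes reaching 1 TPM in any library. Ratios of reads carry exact Clopper-Pearson 95% intervals. No test was run, since each condition had 1 library. All 10 members are named, with the highest 4 genes by mean TPM of each partner list and the 5 genes nearest in profile. DYSF and CAPNS2 were also named, chosen after their values were seen. FPR1 was the highest of its list, by a mean that includes its high RM value. The members and lists were chosen with earlier results of these data known. The floor of 3 reads ran from 1.82 CPM in LD to 6.67 in HD.

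Alternatives used edgeR 4.0.16 (TMM), DESeq2 1.42.0 (median ratio), CPM, pseudocounts of 0.1 and 5, and reads drawn down to 449661. Scripts were tested on simulated counts. Promoter sequences are RefSeq's (GRCh38.p14), and LGALS1 was not shown. Python 3.11.15 and R 4.3.3 were used.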

Additional observations from a re-analysis of the deposited data

How the results depend on the processing

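No paired analysis was possible because each condition had 1 library, and no library could be left out of a comparison for the same reason. Precision was limited by depth in HD, where 4 members had 1 or 2 reads. The numbers of members called in HD against LD stayed at 6 to 10 of 10 except for 5 with CPM of all reads, 5 of the 7 members with a mean of at least 50 TPM, and 4 at a threshold of 2 log2 units. In IL-6 against LD the count of 1 became 0 with CPM of all reads, median-ratio scaling (with or without HD), TMM, a pseudocount of 5, a mean of at least 50 TPM or 2 log2 units, and 2 with reads drawn down. In IL-8 against LD it became 0 only at 2 log2 units. In RM against LD the count of 3 became 1 with CPM outside RNA5-8S5, median-ratio scaling (S100A10, higher), reads drawn down or a mean of at least 50 TPM, 0 with TMM, median-ratio scaling without HD, or 2 log2 units, and 2 with CPM of all reads or a pseudocount of 5. In RM against IL-6 the count of 2 became 1 with either kind of CPM and 0 with median-ratio scaling (with or without HD), TMM, the stricter filter or 2 log2 units, and 3 with reads drawn down (S100A4, higher). In RM against IL-8 the count of 1 became 0 with CPM of all reads and under the same 5 settings that gave 0 in RM against IL-6.

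The median of the members moved with scaling. Under median-ratio scaling it was 0.23 in IL-8 against LD, 0.47 in RM against LD, 0.39 in RM against IL-6 and 0.26 in RM against IL-8. Under TMM the 3 RM medians were 0.30, 0.25 and 0.22 in that order, and under median-ratio scaling without HD, chosen after seeing the data, 0.37, 0.32 and 0.23. With reads drawn down the median in RM against IL-6 was -0.19. In plain CPM, the unit to which these factors apply, the 3 RM medians were -0.12, -0.27 and 0.00, so part of each move came with the change from TPM to reads. Of all calls in RM against LD, 76.0% were lower in the reported setting, 72.8% in CPM, 51.3% with median-ratio scaling, 57.8% with TMM and 55.0% without HD.

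As ratios of reads, which are not corrected for transcript length, ANXA2 to S100A10 was 4.62 in LD, 2.39 with IL-6, 4.06 with IL-8 and 2.77 in RM, and LGALS1 to LGALS3 was 51.9, 29.4, 68.7 and 48.0. The order of the libraries was the same as for TPM. The calls of ANXA5 in IL-8 and of ANXA1, ANXA2, ANXA5, S100A13 and LGALS1 in HD held under all scalings and pseudocounts tried.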
